A study of Mus musculus with 8 samples.

Results

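The ubiquitin system attaches the small protein ubiquitin to other proteins and removes it again. An activating enzyme (E1) passes ubiquitin to a conjugating enzyme (E2), and a ligase (E3) then directs the transfer to a substrate, which the proteasome may degrade. RING ligases bring an E2 and a substrate together, HECT ligases carry ubiquitin themselves, F-box proteins bind substrates for ligases built on a cullin scaffold, and deubiquitinases cut ubiquitin off. In neuronal cells this system controls the turnover of synaptic and signalling proteins, and in the endoplasmic reticulum (ER) it removes misfolded proteins through ER-associated degradation.

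Genes of these families were examined in neuro2a (N2a) cells, a mouse neuroblastoma line, after knockdown of Grp94. Grp94, encoded by Hsp90b1, is the Hsp90-type chaperone of the ER. The labels give 4 arrays named Vector and 4 of the Grp94 knockdown, all of the Affymetrix Mouse Gene 1.0 ST type. The Vector arrays are called empty vector here, which is a reading of a label that does not hold the word empty. By the study's methods, the knockdown used miR RNAi vectors against Grp94. Both groups were the same line, transfected with vectors that also express the fluorescent protein EmGFP, and were collected 2 days later. The study's methods name more than 1 construct against Grp94 and also a non-targeting control vector, and the labels do not tell which was used on which array. RNA came from whole cultures, so a change in some cells cannot be told apart from a smaller change in all cells.

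Members were all rows of the deposited table with a gene symbol that starts with Rnf, Trim, Ube2, Ube3, Fbxo, Fbxl, Fbxw or Usp, or with Cul and a digit. Each row is a transcript cluster, the group of probes that reads one gene. The rule found 43 of 2395 rows, with 42 different symbols. They were 12 Ube2 rows (E2 enzymes), 12 Rnf rows (RING finger proteins), 9 F-box rows, 5 Trim rows (tripartite motif proteins), 3 Usp rows (deubiquitinases), 2 Ube3 rows (HECT ligases) and 0 cullin rows. The table holds only transcript clusters that passed the authors' own test, so a listed member differed by their test from the outset and a family member that is absent has no value here. It gives 1 mean per group on a log2 scale, centred for each transcript cluster, so neither the level of expression nor the spread between arrays can be read from it. Markers of the N2a line could not be checked on such values. The differences below, knockdown minus empty vector on the log2 scale, therefore carry no error and were not tested here.

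Hsp90b1 itself had an authors' mean of 0.74 with the empty vector and -0.78 after knockdown, a difference of -1.52 or 2.87-fold. The direction fits the label of the arrays. In the knockdown, the mean was lower in 59.9% of all rows and higher in 40.1%, and the median difference was -0.16. Where the true zero of the scale lies cannot be told from listed rows alone. Each direction was therefore read a second time after all differences had been re-centred on that median, a shift of 0.16. That median is no estimate of the true zero, because rows were listed for differing from the deposited one. The smallest absolute difference was 0.028, and the quartiles of the difference were -0.30 and 0.20. Re-centred directions and calls show only what such a shift would do.

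Over the 43 members, 24 (55.8%) had a lower mean and 19 a higher one, and the median difference was -0.15. Re-centring turned 4 of the lower rows, which left 20 lower (46.5%) and 23 higher, while all rows went to 49.98% lower. The median absolute difference was 0.24 for members and 0.25 for all rows. Past a fold change of 1.3, a difference of 0.38, 5 members (11.6%) were lower, where 16.1% of all rows were, and 3 members (6.98%) were higher, where 6.26% of all rows were. Re-centring turned the balance of these calls, to 1 member lower, where 6.64% of all rows were, and 8 higher (18.6%), where 22% of all rows were. The 8 were Rnf157, Fbxl7, Fbxw4, Rnf26, Rnf219, Ube2f, Ube2e3 and Ube2cbp, and the lower one was Trim66. Fold changes below are those at the deposited zero unless re-centring is named. At both zero points the share of members past 1.3-fold was below that of all rows on the lower side.

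**Figure D1:**
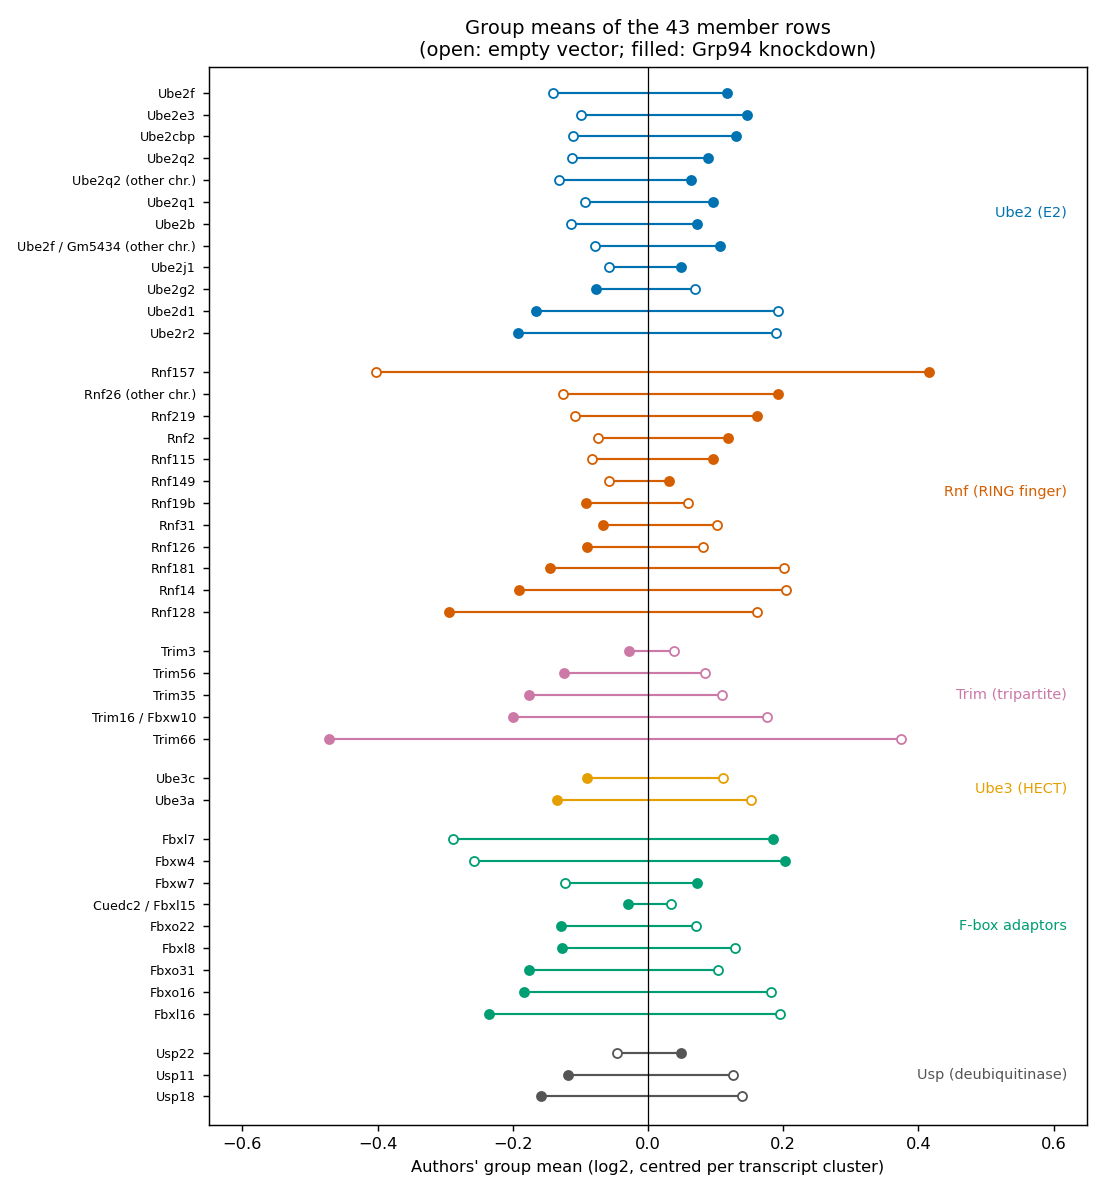
Authors' group means (log2, centred per transcript cluster) of the 43 member rows, ordered by class and by difference; open points are the empty vector and filled points the Grp94 knockdown, with no error since each is 1 mean. In 9 of 12 Ube2 rows the filled point lies to the right, in all 5 Trim rows it lies to the left, and Trim66 and Rnf157 have the widest gaps.

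The largest decrease among members was that of Trim66 and the largest increase was that of Rnf157. Trim66, a chromatin-associated protein related to Trim24 and Trim28, had a mean of 0.37 with the empty vector and -0.47 after knockdown, a difference of -0.85 (1.80-fold). Rnf157, a RING ligase found mainly in brain, had a mean of -0.40 with the empty vector and 0.42 after knockdown, a difference of 0.82 (1.76-fold). In the deposited table, whose genome build is not given in the sources used here, Trim66 lies on chromosome 7 from 116592517 to 116651648 and Rnf157 on chromosome 11 from 116199636 to 116274346. At the deposited zero these 2 were the only members past a fold change of 1.5.

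The promoters of the members with the largest differences are shown because letters bound by known factors can be read in them. They are RefSeq windows of 300 bases, from 250 before to 50 after the start of the gene, in build GRCm38.p6 and on the strand of the gene. Capitals mark CCAAT (the box bound by NF-Y, the factor the study is about) and ACGTG or GCGTG (the core bound by hypoxia-inducible factors) on either strand, so that a match on the opposite strand appears as the reverse complement of these letters. The windows are those of Trim66 (chr7:109508085-109508384, minus strand), Rnf128 (chrX:139610370-139610669, plus strand), Rnf157 (chr11:116412983-116413282, minus strand) and Fbxl7 (chr15:26895515-26895814, minus strand).
Trim66: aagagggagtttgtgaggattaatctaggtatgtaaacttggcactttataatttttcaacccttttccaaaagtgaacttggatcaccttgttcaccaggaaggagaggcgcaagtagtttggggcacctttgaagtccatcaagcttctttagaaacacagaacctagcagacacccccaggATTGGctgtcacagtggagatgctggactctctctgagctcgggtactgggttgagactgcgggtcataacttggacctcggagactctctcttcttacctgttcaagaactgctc
Rnf128: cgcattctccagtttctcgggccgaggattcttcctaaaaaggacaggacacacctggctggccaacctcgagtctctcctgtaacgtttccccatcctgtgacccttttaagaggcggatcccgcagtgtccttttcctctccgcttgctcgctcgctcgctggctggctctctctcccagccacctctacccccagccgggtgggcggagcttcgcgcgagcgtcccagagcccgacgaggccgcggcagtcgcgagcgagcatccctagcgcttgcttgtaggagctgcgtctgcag
Rnf157: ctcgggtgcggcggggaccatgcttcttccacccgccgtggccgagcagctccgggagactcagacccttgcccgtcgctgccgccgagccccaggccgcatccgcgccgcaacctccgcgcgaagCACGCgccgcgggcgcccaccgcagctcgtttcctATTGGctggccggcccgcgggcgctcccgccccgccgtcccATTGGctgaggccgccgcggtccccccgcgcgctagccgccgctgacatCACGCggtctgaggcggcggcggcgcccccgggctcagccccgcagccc
Fbxl7: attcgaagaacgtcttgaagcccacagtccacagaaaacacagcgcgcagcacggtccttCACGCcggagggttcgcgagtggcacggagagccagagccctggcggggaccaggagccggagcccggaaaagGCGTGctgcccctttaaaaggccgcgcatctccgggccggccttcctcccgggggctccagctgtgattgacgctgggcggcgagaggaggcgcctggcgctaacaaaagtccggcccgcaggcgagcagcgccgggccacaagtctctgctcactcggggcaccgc

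The window of Trim66, which was lower, held 1 CCAAT box and that of Rnf128, also lower, held none of the letters searched. The window of Rnf157, which was higher, held 2 CCAAT boxes and 2 cores of the other kind, and that of Fbxl7, also higher, held 2 such cores. A window was found for 30 of the member genes. CCAAT was in 6 of these 30 (20%), with 4 of 16 lower members (25%) and 2 of 14 higher members (14.3%), in 45.7% of 1854 genes of the table and in 41.1% of all 27025 genes with a window. ACGTG or GCGTG was in 18 of the 30 (60%), with 7 of the lower (43.8%) and 11 of the higher members (78.6%), beside 66.7% of the genes of the table and 46.7% of all genes. TGATGNAA, a form of the site bound by ATF4, was in 0 of the 30 windows and in 3.56% of the genes of the table. Genes with several starts had several windows and were counted once if any window held the letters. These are matches of letters and were not tested, and whether a factor bound there was not measured.

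The E2 enzymes were the class that most often had a higher mean in the knockdown. Of 12 Ube2 rows, 9 (75%) were higher and 3 lower, and the median difference was 0.19, where 40.1% of all rows were higher. After re-centring 10 were higher and 2 were lower, since Ube2g2 changed its direction. The increases ran from 0.11 to 0.26. At the deposited zero 0 of 12 rows were past 1.3-fold upwards, where 6.26% of all rows were, and 1 (8.33%) downwards, where 16.1% were. After re-centring 3 (25%) were past it upwards (Ube2f, Ube2e3 and Ube2cbp), near the 22% of all rows. Downwards 0 were past it, where 6.64% of all rows were.

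Among the higher E2 rows, Ube2f had a mean of -0.14 with the empty vector and 0.12 after knockdown, a difference of 0.26. Ube2f carries the ubiquitin-like protein NEDD8 rather than ubiquitin and passes it to a cullin. Ube2e3 went from -0.10 to 0.15, a difference of 0.25. Ube2cbp went from -0.11 to 0.13, a difference of 0.24, but its other name in the gene table is Ube3d and it is a protein that binds E2 enzymes rather than an E2 itself. Ube2q2 (0.20), Ube2q1 (0.19) and Ube2b (0.19) had nearly equal differences. Ube2b is one of the mammalian Rad6 proteins, which mark histones and act in the tolerance of DNA damage.

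The 3 lower E2 rows were those of Ube2r2, Ube2d1 and Ube2g2. Ube2r2, a relative of Cdc34 that works with cullin ligases, had a mean of 0.19 with the empty vector and -0.19 after knockdown, a difference of -0.38 (1.303-fold), just past the threshold. Ube2d1, an E2 that serves many RING ligases, went from 0.19 to -0.17, a difference of -0.36. Both differences were larger than that of any higher E2 row at the deposited zero, and smaller than that of any of these 9 rows after re-centring (-0.22 for Ube2r2 and -0.19 for Ube2d1). On the chromosomes of the deposited table, Ube2r2 lies at 41083049 to 41140403 of chromosome 4 and Ube2d1 at 70717728 to 70747981 of chromosome 10.

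E2 enzymes of ER-associated degradation had opposite directions. Of 27 member genes that had been placed on a list of ER-linked enzymes, 2 were in the table. Ube2g2, which is recruited to the ER membrane, had a mean of 0.069 with the empty vector and -0.077 after knockdown, a difference of -0.15 that re-centring turned to 0.018. Ube2j1, which is anchored in that membrane, had a mean of -0.057 with the empty vector and 0.049 after knockdown, a difference of 0.11 (0.27 after re-centring). Both differences as deposited were smaller than the median absolute difference of all rows. The re-centred value of Ube2g2 comes from the shift alone and is below the smallest absolute difference of all rows, 0.028.

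Some member rows may not read the gene they are named after. By gene identifier all 43 rows were matched to RefSeq genes of GRCm38, and 3 lay on another chromosome than their gene, all 3 of them higher. A second Ube2q2 row (0.20) spans 1137 bases on chromosome 10, while the gene is on chromosome 9. A second Ube2f row (0.18) is shared with Gm5434, a transcribed pseudogene, and spans 554 bases on chromosome 12, while Ube2f is on chromosome 1. The Rnf26 row (0.32) spans 2353 bases on chromosome 6, while the gene is on chromosome 9. Without these rows 30.0% of 10 Ube2 rows were lower, and their median difference stayed at 0.19. With Ube2cbp left out as well, 3 of 9 Ube2 rows (33.3%) were lower and 6 (66.7%) higher, with a median of 0.19. Whether such copies add to the signal of the rows named after their genes was not tested.

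**Figure D2:**
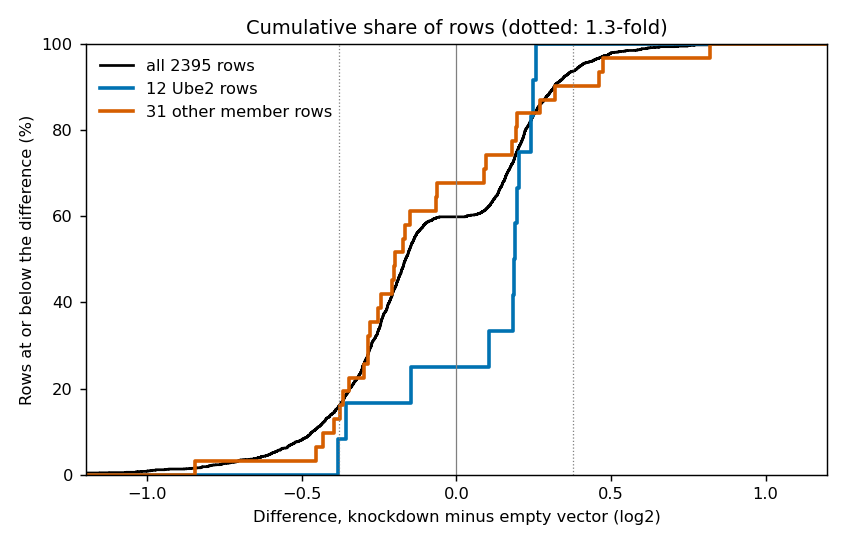
Cumulative share (%) of rows at or below each difference (log2, knockdown minus empty vector) for all 2395 rows, the 12 Ube2 rows and the 31 other member rows, with dotted lines at a fold change of 1.3. The Ube2 line stays at 25% until it passes zero and reaches 100% at 0.26, whereas the line of other members runs near that of all rows.

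RING finger proteins were divided evenly. Of 12 Rnf rows, 6 were on either side, and the median difference was -0.031. The median turned to 0.13 with re-centring, where 5 were lower and 7 higher, and it was -0.15 without the Rnf26 row on the other chromosome. Past a fold change of 1.3, 2 rows (16.7%) were lower, where 16.1% of all rows were, and 1 (8.33%) was higher, where 6.26% of all rows were. After re-centring 0 were past it on the lower side, where 6.64% of all rows were. On the higher side 3 (25%) were past it, Rnf157, Rnf26 and Rnf219, where 22% of all rows were. The range, from -0.45 to 0.82, was the widest of any class.

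On the lower side, Rnf128, a membrane ligase known as GRAIL from its part in T cell anergy, had a mean of 0.16 with the empty vector and -0.29 after knockdown, a difference of -0.45. Its row lies at 136145159 to 136207674 of chromosome X. Rnf14 went from 0.20 to -0.19, a difference of -0.40, and Rnf181 from 0.20 to -0.15, a difference of -0.35. Rnf14 belongs with Rnf31 and Rnf19b to the RBR ligases, which join a RING domain with a step of carrying ubiquitin. Rnf31, the catalytic subunit of the complex that builds linear ubiquitin chains, had a difference of -0.17 and Rnf19b one of -0.15. All 3 RBR rows among the members were lower, although Rnf19b turned higher with re-centring; this grouping was made after the values were seen. Rnf126, which works with Bag6 on proteins that miss the ER membrane, had a difference of -0.17.

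On the higher side, Rnf157 stood apart from the other rows. Rnf219 had a mean of -0.11 with the empty vector and 0.16 after knockdown, a difference of 0.27, and is named Obi1 in RefSeq. Rnf2, the Ring1b subunit of Polycomb complexes that marks histone H2A, had a difference of 0.19, and Rnf115 one of 0.18. Rnf149 had the smallest difference of the class, 0.088. Of these 4, none reached a fold change of 1.3 at the deposited zero, and Rnf219 did after re-centring.

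All Trim rows were lower. The 5 differences ran from -0.85 to -0.066, with a median of -0.29, and after re-centring 4 of 5 were lower, since Trim3 turned. Next to Trim66 came the row shared by Trim16 and Fbxw10, with a mean of 0.18 with the empty vector and -0.20 after knockdown and a difference of -0.38 (1.298-fold), just short of 1.3-fold. Its probes do not separate the Trim from the F-box gene, and counting it with the F-box rows left the Trim share at 100%. Trim35 had a difference of -0.29, Trim56, which takes part in antiviral defence, one of -0.21 and Trim3, a protein enriched in brain, one of -0.066. Of all rows 59.9% were lower, and with 5 rows nothing particular to the class was read from its share.

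Both HECT rows were lower, also after re-centring. Ube3a, the ligase whose loss in neurons causes Angelman syndrome, had a mean of 0.15 with the empty vector and -0.13 after knockdown, a difference of -0.29. Ube3c, which associates with the proteasome, went from 0.11 to -0.09, a difference of -0.20. Neither reached a fold change of 1.3 at either zero point. When Ube2cbp was counted with them under its other name, 66.7% of 3 rows were lower.

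F-box adaptors had 6 lower and 3 higher rows, with a median of -0.20, and 5 lower and 4 higher after re-centring. The subfamilies, named for the domain beside the F-box, did not all point the same way. All 3 Fbxo rows were lower, 3 of 4 Fbxl rows were lower (2 after re-centring), and both Fbxw rows of their own were higher.

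Among the lower F-box rows, Fbxl16 had a mean of 0.20 with the empty vector and -0.24 after knockdown, a difference of -0.43, at 25953360 to 25958200 of chromosome 17. It was the only lower F-box row past 1.3-fold, and was not past it after re-centring (-0.27). Fbxo16 had a difference of -0.37, Fbxo31, known for binding cyclin D1, one of -0.28, and Fbxl8 one of -0.26. Fbxo22, which binds histone demethylases, had a difference of -0.20. The row that Fbxl15 shares with Cuedc2 had the smallest, -0.063, and turned higher with re-centring.

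Of the 3 higher F-box rows, 2 had larger differences than any lower one. Fbxl7 had a mean of -0.29 with the empty vector and 0.18 after knockdown, a difference of 0.47, at 26470214 to 26825319 of chromosome 15. Fbxw4 went from -0.26 to 0.20, a difference of 0.46, at 45652744 to 45734683 of chromosome 19. Fbxw7, the adaptor through which cyclin E, Myc and Notch are degraded, went from -0.12 to 0.072, a difference of 0.20. Fbxl7 and Fbxw4 were past 1.3-fold upwards at both zero points.

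Deubiquitinases of the Usp family were few. Usp18, which removes the ubiquitin-like protein ISG15, had a mean of 0.14 with the empty vector and -0.16 after knockdown, a difference of -0.30. Usp11 went from 0.13 to -0.12, a difference of -0.24. Usp22, a subunit of the SAGA coactivator that acts on histones, was higher, with a difference of 0.094. On a list of 6 member genes for ubiquitin-like modifiers, Usp18 and Ube2f were the 2 in the table, with 1 lower and 2 higher rows. Re-centring left the 3 Usp directions as they were, and none of the rows reached a fold change of 1.3 at either zero point.

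**Figure D3:**
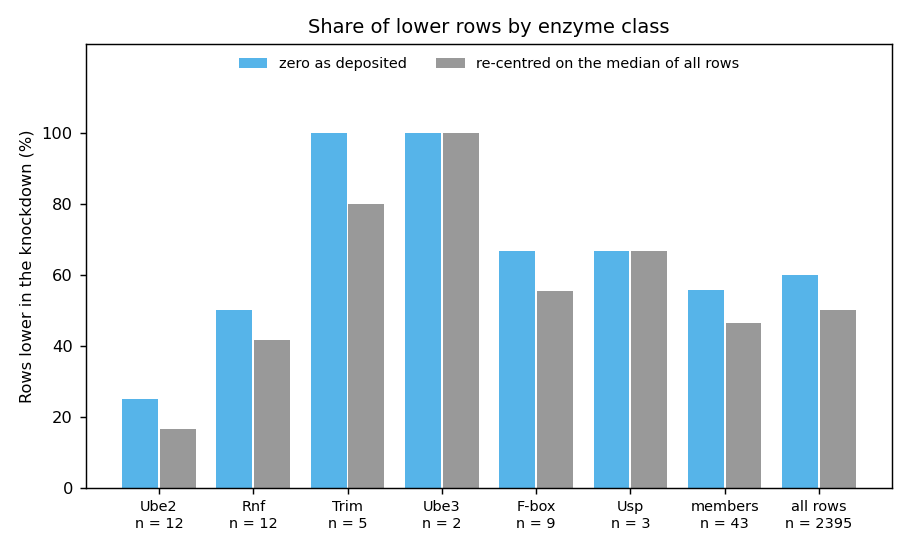
Share (%) of rows with a lower mean in the knockdown, for each enzyme class, all members and all rows, with the zero as deposited (blue) and after re-centring on the median of all rows (grey); n is the number of rows. Ube2 has the lowest share under both zero points (25% and 16.7%), Ube3 is at 100% under both, and Trim is at 100% and 80%.

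Set side by side, 67.7% of the 31 member rows outside Ube2 and 25% of the 12 Ube2 rows were lower, and 58.1% and 16.7% after re-centring. The medians were -0.20 and 0.19. Without Ube2cbp and the rows on another chromosome, 3 of 9 Ube2 rows (33.3%) were lower, and 2 (22.2%) after re-centring. Ube2 had the smaller share of lower rows at either zero point. Re-centring moves every row by the same amount, so it could not change the order of the medians and is no check of it. Rows are not replicates and shared the same 8 arrays, so this difference between classes was not tested.

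Families also differed in how much of them was in the table. Of the protein-coding genes in RefSeq, 2246 of 21900 (10.3%) were in the table, and of the member families 41 of 338 (12.1%). The share was 27.0% for Ube2 (10 of 37 genes), 12.9% for Rnf, 12.8% for F-box genes, 7.14% for Trim and 5.26% for Usp. Ube3 had 2 of 3 genes and the cullins 0 of 8. Which genes were on the array or were left out for low expression is not known, so these shares describe the table and not the number of genes that responded.

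Other genes of the ubiquitin system, taken from 7 further lists, were divided like the rest of the table. Without members they had 44 rows, of which 26 (59.1%) were lower and 18 higher, their median difference was -0.15, and 45.5% were lower after re-centring. Past 1.3-fold, 6 (13.6%) were lower, where 16.1% of all rows were, and 3 (6.82%) were higher, where 6.26% of all rows were. Upstream of the E2 enzymes, none of the E1 enzymes and 1 of 21 symbols on their list was in the table, in a row that Sumo2 shares with microRNA genes and pseudogenes (0.081). Downstream, 2 of 51 symbols of the proteasome were in the table, Psmb8 of the immunoproteasome (-0.28) and Psma3, whose 2 rows both had -0.11 and turned higher with re-centring.

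Ligases outside the member families went both ways. Of 9 rows with RING or U-box ligases, 5 were lower and 4 were higher. Mib2, a ligase of Notch ligands, had a difference of -0.39 and Znrf3, which removes Wnt receptors from the cell surface, one of 0.49. The only other HECT ligase in the table was Herc3 (-0.30). Among subunits and adaptors of cullin ligases 6 rows were lower and 6 were higher. Crbn, the substrate receptor cereblon, had a difference of -0.38, while Socs2, a receptor subunit that curbs growth hormone signalling, had 0.65 and, in a row shared with Gm9847, 0.71.

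Deubiquitinases outside Usp, a list that also holds proteases of related modifiers, had 6 lower and 5 higher rows. Otub2 (-0.58), Fam63b (-0.51) and a row shared by Atg4a and Syt6 (-0.41) were past 1.3-fold. They are 3 of 11 rows (27.3%), where 16.1% of all rows were past it on the lower side. Otud6b had the largest increase (0.24), and 0 rows were past 1.3-fold upwards, where 6.26% of all rows were. Another row shared by Atg4a and Syt6 (-0.36) was not past it, and which of the genes these rows read was not tested. Of 7 rows on the list of ER-associated degradation, 5 were lower (71.4%, where 59.9% of all rows were) and 2 were higher. After re-centring 3 were lower (42.9%, where 49.98% of all rows were). Past 1.3-fold 1 (14.3%) was lower, where 16.1% of all rows were, and 0 were higher, where 6.26% were. Herpud1, which supports the ligase complex of the ER membrane, had a mean of 0.17 with the empty vector and -0.24 after knockdown, a difference of -0.41. Sel1l, a core part of that complex, had a difference of -0.19, and Ubxn2a had the largest increase (0.31).

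**Figure D4:**
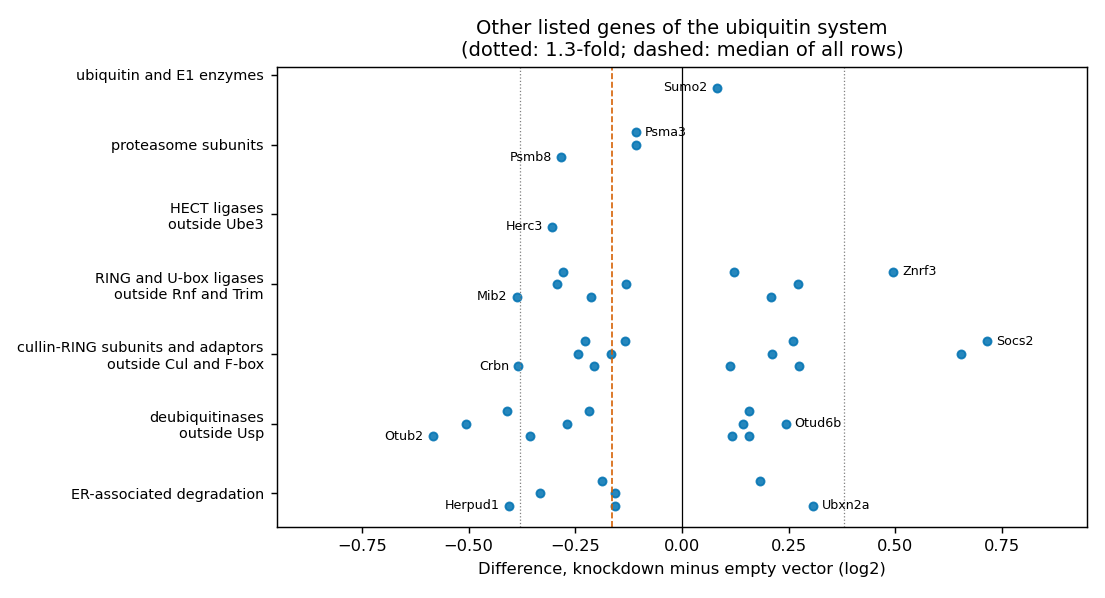
Difference (log2, knockdown minus empty vector) of each row on 7 other lists of the ubiquitin system, with the lowest and highest row of each list named, dotted lines at a fold change of 1.3 and a dashed line at the median of all rows. Socs2 and Znrf3 lie past 1.3-fold on the higher side, and Otub2, Herpud1, Mib2 and Crbn on the lower side.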

How the data were processed

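RNA of transfected N2a cells was labelled with kits from Ambion and Affymetrix and hybridised to Affymetrix Mouse Gene 1.0 ST arrays, and the authors analysed the data in Agilent GeneSpring GX. Genes under the 20th percentile of expression were left out by them. Summarization of probes, normalization between arrays and genome build are not given in the sources used here. The deposited log2 values are the authors' means per group, centred for each transcript cluster, with the means of both groups on opposite sides of 0 in each row. The name of the table gives a limit of 0.01 on p. The table's own p-values, q-values, fold changes and regulation calls are the authors' comparison and were not used.

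The difference was computed as knockdown minus empty vector. Because there is 1 mean per group, no test, standard error or interval was made, and this number of arrays limits the precision. A row with symbols of more than 1 class was counted with the first. The fold change threshold was 1.3. Genes named in the text are Hsp90b1, members past that threshold, the 3 largest decreases and increases of each class, ER-linked members and, of other lists, rows past the threshold or the largest change in each direction. Other members were added to account for all rows. Members, classes and lists were chosen with earlier results of these data known. The windows were searched for CCAAT, for ACGTG or GCGTG, and for TGATGNAA on both strands. Motifs in proteins had been planned and were not analysed here. Alternatives were the fold change threshold (1.2 and 1.5), rows with 1 symbol, 1 row per symbol, re-centring and stricter family names. Another 3 were chosen after the data had been seen, namely leaving out rows on another chromosome and other classes for the shared Trim16 row and for Ube2cbp. The summary script was tested on simulated data. Python 3.11.15 with numpy 2.4.6, pandas 2.3.3, scipy 1.17.1 and matplotlib 3.10.9 was used.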

Additional observations from a re-analysis of the deposited data

How the results depend on the processing

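No paired analysis was possible because the table holds 1 mean per group and no value per array, and for the same reason no array could be left out. Of 119 alternative values for the counts, the shares of lower rows and the class medians, 102 stayed within the binomial interval of a share or within 1.5 times a count or median. This count is no measure of robustness. Many alternatives left a class without any changed row, as for Usp, whose median moved only with re-centring. The interval of a share over few rows is wide, so that Ube3 at 66.7% counted as unchanged from 100%. It also treats rows as independent, which they are not. Past 1.2-fold 13 members were lower and 5 were higher, and past 1.5-fold there was 1 of each. The shares of all rows past these thresholds at the deposited zero were not computed, so nothing particular to members can be read from these counts. After re-centring 1 member was lower past 1.3-fold, where 6.64% of all rows were, and 8 (18.6%) were higher, where 22% of all rows were. Among rows past 1.2-fold at the deposited zero, 72.2% of 18 members, 100% of 2 Ube2 rows and 100% of 1 Usp row were lower. For these too the share over all rows was not computed, so they cannot be set against the table. After re-centring 0 Ube2 rows were lower past 1.2-fold, where 12.4% of all rows were. On the higher side 9 (75%) were past it, where 38.1% of all rows were. At the deposited zero none of these 9 was past 1.2-fold, so this share comes from the shift itself. The 9 include the Ube2q2 and Ube2f rows on another chromosome, and Ube2cbp. Past 1.5-fold 0% of 1 Rnf row was lower, and classes without a row past a threshold gave no share. Re-centring moved the class medians to -0.035 for F-box, -0.12 for Trim, 0.35 for Ube2, -0.079 for Ube3 and -0.080 for Usp by the shift itself, and that of Rnf turned to 0.13. Without rows on another chromosome the Rnf median was -0.15, because Rnf26 was left out.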

Other observations

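By the deposited positions, 24 of 43 member rows (55.8%) were within 100 kb of another row, beside 47.0% of the 2381 rows of the table that have another row on their chromosome. Of these 24, 15 (62.5%) had the same direction as the nearest row, beside 63.1% over the table. Ube2q2 on chromosome 9 and Fbxo22 lie 1467 bases apart and had differences of nearly equal size and opposite direction, 0.20 and -0.20. Rnf181 (-0.35) overlaps the row of Tmem150a (0.40), and Rnf115 (0.18) lies 199 bases from Polr3c (-0.14). Rnf126 (-0.17) overlaps the row of Fgf22 (-0.12), with the same direction. How far probes of overlapping rows share signal was not tested.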
